A study of Homo sapiens with 6 samples.

Results

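The genes described here encode sensors of foreign or misplaced nucleic acid and the proteins that relay their signal to the interferon system: IFIH1, DHX58, TLR3, MAVS, STING1, CGAS, IRF3, IRF7, IRF9 and STAT2. They were taken by symbol from the gene tables, and all 10 were found among the 47432 genes listed. RNA-seq was performed in LOX-IMVI, an established human melanoma cell line, after lentiviral transduction with a pLKO.1 control (shCtrl, 3 libraries) or with a pLKO.1 short hairpin RNA against NFKBIZ (shNFKBIZ, 3 libraries), and both groups were selected with puromycin. NFKBIZ encodes IκBζ, a nuclear IκB protein that acts as a transcriptional co-regulator. The knockdown rests on 1 hairpin in 1 cell line, and the labels name no interferon or nucleic acid treatment. The comparison addressed at which step upstream of the interferon-stimulated genes expression differed after knockdown.

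MDA5 (encoded by IFIH1) and RIG-I recognise cytosolic double-stranded RNA and signal through the mitochondrial adaptor MAVS, with LGP2 (DHX58) as a helicase of the same family that modulates them. TLR3 reads double-stranded RNA in endosomes, whereas cGAS detects cytosolic DNA and produces the cyclic dinucleotide that activates STING at the endoplasmic reticulum. These routes meet at the kinase TBK1 and the transcription factors IRF3 and IRF7, which induce interferons. Secreted type I interferon signals through IFNAR1 and IFNAR2 to STAT2 and IRF9, which are parts of the complex ISGF3. ISGF3 binds the interferon-stimulated response element (ISRE) of interferon-stimulated genes. IFIH1, DHX58, IRF7, IRF9 and STAT2 are themselves interferon-stimulated genes.

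Each library held 22264473 to 24624839 exon reads, and the lowest correlation within a group (0.9917) lay above the highest between groups (0.9699). NFKBIZ itself had 1519, 1629 and 1674 exon reads in shCtrl against 474, 477 and 468 in shNFKBIZ, a log2 fold change of −1.78 (SE 0.0581, edgeR adjusted p = 7.2e-17). Of 6 melanocyte lineage markers, only MITF had a mean of at least 1 TPM, the length-scaled unit used for levels. MLANA and SOX10 had no exon read in any library, and the summed level of the list was 3.06 to 4.10 TPM in shCtrl and 1.79 to 2.44 TPM in shNFKBIZ. The 4 markers of undifferentiated melanoma, AXL, EGFR, NGFR and FOSL1, summed to 1200 to 1253 TPM in shCtrl and 1862 to 1950 TPM in shNFKBIZ. The 9 markers of leukocytes, epithelium and endothelium summed to 0.873 to 1.56 TPM in shCtrl and 1.73 to 2.12 TPM in shNFKBIZ, with no exon read of CD3E. Of that list only KRT14, a keratin of basal epithelium, had a mean of at least 1 TPM, and it had 10, 10 and 4 exon reads in shCtrl against 20, 24 and 19 in shNFKBIZ. MITF was lower in shNFKBIZ (log2 fold change −0.77, edgeR adjusted p = 2.55e-05), and FOSL1 (0.73), EGFR (0.66), AXL (0.17) and KRT14 (1.37) were higher (adjusted p = 1.61e-14, 2.5e-13, 0.00205 and 0.00128), whereas NGFR had too few reads for the test. The part of these markers in the results was not tested.

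After knockdown 6 of the 10 genes were lower, IFIH1, STING1, IRF7, DHX58, IRF9 and IRF3, and 0 were higher. IFIH1, IRF7, STING1 and DHX58 fell by more than 2-fold, whereas IRF9 and IRF3 fell by less. MAVS, CGAS and STAT2, which were all well expressed, did not pass the test, nor did TLR3, which had few reads. These calls come from the quasi-likelihood test of edgeR on exon reads with an adjusted p of at most 0.05 over the 13843 genes tested. Many genes passed that test, 32.8% of all genes in the lower direction and 32.5% in the higher. At the stricter limit of a 2-fold change as well, 5.12% of all genes were lower and 3.84% higher, against 4 and 0 of these 10. No gene of the set was higher at an unadjusted p under 0.05 either, by edgeR or by DESeq2 (0 in each case). The median log2 fold change of the 10 was −0.49, and that of all genes tested was 0.0043. Because RNA was taken from bulk cultures, fewer expressing cells and less RNA per cell cannot be told apart.

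**Figure D1:**
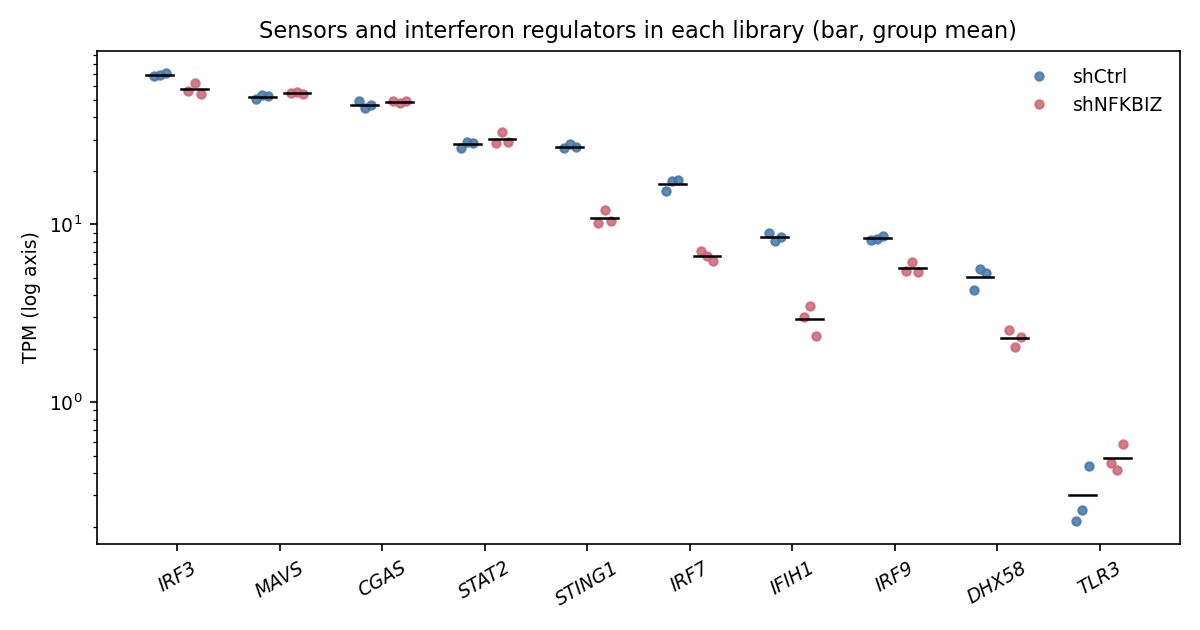
Level of each gene in TPM (log axis) in the 3 shCtrl and the 3 shNFKBIZ libraries, with 1 point per library and a bar at the group mean. For STING1, IRF7, IFIH1, IRF9, DHX58 and IRF3 every shNFKBIZ library lies below every shCtrl library, whereas the points of CGAS, STAT2 and TLR3 overlap between the groups.

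The levels, which TPM puts on a per-length scale, spanned a wide range. In shCtrl, IRF3 was highest with 69.3 ± 1.47 TPM (SD, n = 3), followed by MAVS (52.3 ± 1.32), CGAS (47.2 ± 2.06), STAT2 (28.2 ± 1.23), STING1 (27.4 ± 0.651), IRF7 (16.9 ± 1.34), IFIH1 (8.53 ± 0.459), IRF9 (8.34 ± 0.233), DHX58 (5.09 ± 0.701) and TLR3 (0.301 ± 0.121). Among neighbours in this order, STAT2 and STING1, and likewise IFIH1 and IRF9, overlapped between libraries. In shNFKBIZ the order was the same except that IRF9 (5.69 ± 0.426 TPM) stood above IFIH1 (2.94 ± 0.559 TPM). STAT2 and STING1 no longer overlapped, with 28.6 to 33.1 TPM for STAT2 and 10.1 to 12.0 TPM for STING1. IRF3 now overlapped MAVS, and IFIH1 overlapped DHX58.

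Among the RNA sensors, IFIH1 (ENSG00000115267, hg38 chr2:162267074-162318684, minus strand) fell most. It had 292, 271 and 257 exon reads in shCtrl, compared with 92, 104 and 73 in shNFKBIZ. The groups were far apart, with the highest knockdown library below every control library. The log2 fold change was −1.62 (SE 0.115, 95% interval −1.86 to −1.38, edgeR adjusted p = 4.83e-11), a 3.08-fold lower level.

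The promoter of IFIH1 is shown because it held the most ISRE matches of the 5 promoters matched. The sequence covers the 200 bases before the RefSeq transcription start (GRCh38.p14, chr2:162318685-162318884, minus strand, printed 5′ to 3′ on the strand of the gene), with ISRE cores in capitals. The core searched was GAAA repeated after a gap of 2 bases, on both strands.
IFIH1 promoter: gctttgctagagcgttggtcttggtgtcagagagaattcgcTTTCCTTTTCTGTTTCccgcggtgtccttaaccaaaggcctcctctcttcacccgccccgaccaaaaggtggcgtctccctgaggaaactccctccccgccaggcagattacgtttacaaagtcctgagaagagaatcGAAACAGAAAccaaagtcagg
The 3 matches were an overlapping pair on the opposite strand, at −159 to −150 and −153 to −144, and one on the strand of the gene at −21 to −12. A kappa-B match, GGG and TTCC with 3 bases between them, lay at −76 to −67 on the opposite strand. Of 27305 RefSeq promoters, from 250 bases before to 50 after the start, 3.65% held the ISRE core and 6.47% the kappa-B letters. These letters describe the sequence only and do not show that a factor binds there.

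DHX58 (ENSG00000108771, chr17:42101404-42112714, minus strand), which encodes LGP2, had 102, 138 and 118 exon reads in shCtrl against 57, 45 and 53 in shNFKBIZ. Every knockdown library was again below every control library. Its level went from 5.09 ± 0.701 to 2.31 ± 0.250 TPM (SD, n = 3), and the log2 fold change was −1.22 (SE 0.153, 95% interval −1.54 to −0.90, edgeR adjusted p = 3.89e-07).

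TLR3 (ENSG00000164342, chr4:186068911-186088073, plus strand) had 10, 12 and 19 exon reads in shCtrl, compared with 20, 18 and 26 in shNFKBIZ. The groups overlapped, since the third shCtrl library lay above the second shNFKBIZ library. The estimate was positive but wide, with a log2 fold change of 0.62 (SE 0.310, 95% interval −0.02 to 1.27, edgeR adjusted p = 0.0848), so a difference was not detectable at this depth. Without the third shCtrl library it was 0.96 with an adjusted p of 0.0253.

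RIG-I, MDA5 and TLR3 act beside further sensors and cofactors, of which 13 of 17 listed were tested. In that list 5 fell and 6 rose, with a median log2 fold change of 0.12. For comparison, 32.8% of all genes tested were lower and 32.5% higher. RIGI, the sensor closest to MDA5, fell by 0.70 on the log2 scale (edgeR adjusted p = 6.57e-10), with 673, 688 and 661 exon reads in shCtrl against 408, 424 and 424 in shNFKBIZ. Only 91 of its 2022 shCtrl reads were counted as unique exon reads. Whether the others matched other places or gene models that share the same bases was not tested. On unique reads the log2 fold change was −0.74 (edgeR adjusted p = 0.00994). ZCCHC3, a zinc-finger cofactor of cGAS and of the RIG-I-like receptors, was the one gene of this list beyond 2-fold. It had 595, 623 and 592 reads in shCtrl, compared with 1221, 1317 and 1227 in shNFKBIZ, which gave a log2 fold change of 1.04 (edgeR adjusted p = 1.11e-13). Thus the direction differed among these sensors and cofactors, with IFIH1, DHX58 and RIGI lower and the cofactor ZCCHC3 higher.

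MAVS, an adaptor of the RNA route, and STING1, of the DNA route, behaved differently. MAVS (ENSG00000088888, chr20:3846799-3876123, plus strand) had 3716, 4030 and 3581 exon reads in shCtrl against 3789, 3759 and 3781 in shNFKBIZ, and the groups overlapped. Its log2 fold change was −0.01 (SE 0.0355, 95% interval −0.09 to 0.06, edgeR adjusted p = 0.765), so that a ratio below 0.942 or above 1.04 lay outside the interval. In TPM, which takes no TMM factor, MAVS was 50.8 to 53.3 in shCtrl and 54.0 to 55.5 in shNFKBIZ. A small difference in MAVS therefore depends on the scaling.

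STING1 (ENSG00000184584, chr5:139475533-139482935, minus strand) was the only gene of cytosolic DNA sensing among the 10 that fell. It had 804, 868 and 750 exon reads in shCtrl, compared with 285, 331 and 298 in shNFKBIZ, groups that lay far apart. The log2 fold change was −1.42 (SE 0.0653, 95% interval −1.55 to −1.28, edgeR adjusted p = 2.84e-14), a 2.67-fold lower level.

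CGAS (ENSG00000164430, chr6:73413515-73452297, minus strand), the enzyme directly upstream of STING, had 1279, 1212 and 1132 exon reads in shCtrl against 1213, 1149 and 1220 in shNFKBIZ. The groups overlapped, at 45.2 to 49.3 TPM in shCtrl and 47.9 to 49.6 TPM in shNFKBIZ. The log2 fold change was −0.03 (SE 0.0489, 95% interval −0.13 to 0.07, edgeR adjusted p = 0.605). CGAS shares 180 exon bases (4.31% of its exons) with DDX43 on the opposite strand, and the counting did not use strand.

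Of the 12 other adaptors and kinases listed, all were tested, 3 fell and 3 rose, none by 2-fold. The median log2 fold change was −0.01. Over all genes tested the shares were 32.8% lower and 32.5% higher. TBK1, the kinase that phosphorylates IRF3, had a log2 fold change of 0.01 (edgeR adjusted p = 0.884). TICAM1, a further adaptor named after its value was seen, fell by 0.72 on the log2 scale (edgeR adjusted p = 1.54e-07). It had 316, 361 and 297 exon reads in shCtrl against 200, 202 and 195 in shNFKBIZ.

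IRF3 and IRF7, the factors that the kinases activate, were both lower, by different amounts. IRF3 (ENSG00000126456, chr19:49659569-49665875, minus strand) is generally present before stimulation, and here it was the most abundant gene of the set. It had 1602, 1684 and 1550 exon reads in shCtrl, compared with 1242, 1367 and 1227 in shNFKBIZ, with no overlap. The log2 fold change was −0.35 (SE 0.0468, 95% interval −0.45 to −0.25, edgeR adjusted p = 1.1e-06), or 1.27-fold lower. IRF3 shares 734 exon bases (19.4%) with BCL2L12 on the opposite strand, which rose by a log2 fold change of 0.26 (edgeR adjusted p = 0.000229). Reads in the shared bases cannot be told apart in counts made without strand.

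IRF7 (ENSG00000185507, chr11:612553-615983, minus strand), itself an interferon-stimulated gene, had 249, 296 and 266 exon reads in shCtrl against 108, 100 and 97 in shNFKBIZ. The knockdown libraries were close to each other and all below the controls. The change was −1.42 on the log2 scale (SE 0.103, 95% interval −1.64 to −1.21, edgeR adjusted p = 6.07e-11), a 2.68-fold lower level.

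Of 8 other genes of the IRF family and its binding proteins, 4 were tested, of which 2 fell and 2 rose (median log2 fold change 0.06). Among all genes tested, 32.8% were lower and 32.5% higher. IRF2, which can repress as well as activate interferon-responsive promoters, had 463, 513 and 452 exon reads in shCtrl, compared with 233, 223 and 256 in shNFKBIZ. It fell by 1.02 on the log2 scale (edgeR adjusted p = 9.87e-11). IRF1, an activator with an overlapping set of target sites, had 141, 155 and 180 reads in shCtrl against 203, 248 and 209 in shNFKBIZ. It rose by a log2 fold change of 0.46 (edgeR adjusted p = 0.00143).

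STAT2 and IRF9, which act in ISGF3, differed in their calls, and the difference between them was not tested. STAT2 (ENSG00000170581, chr12:56341597-56360203, minus strand) had 1548, 1730 and 1549 exon reads in shCtrl, compared with 1557, 1772 and 1603 in shNFKBIZ. The groups overlapped, and the log2 fold change was 0.02 (SE 0.0490, 95% interval −0.08 to 0.12, edgeR adjusted p = 0.77).

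IRF9 (ENSG00000213928, chr14:24161234-24168043, plus strand), the DNA-binding part of ISGF3, had 328, 344 and 321 exon reads in shCtrl against 208, 230 and 208 in shNFKBIZ. The groups did not overlap, and the log2 fold change was −0.63 (SE 0.0810, 95% interval −0.80 to −0.47, edgeR adjusted p = 5.23e-07). However, IRF9 shares 1544 exon bases (23.9%) with a read-through gene on the same strand (ENSG00000259529), to which 449 reads were assigned in shCtrl and 460 in shNFKBIZ. Reads counted as unique were 76, 103 and 91 in shCtrl and 59, 83 and 62 in shNFKBIZ, and the groups overlapped. On unique reads the log2 fold change was −0.42 (edgeR adjusted p = 0.0138). With IRF9 and the read-through gene summed it was −0.40 (adjusted p = 0.0143). The lower level of IRF9 thus passed the test in each way of counting, with a smaller difference where the shared reads were set aside or summed.

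The promoters of IRF9 and TLR3 each held a match to one of the searched elements near the start, as 30-base windows with the match in capitals show (RefSeq, GRCh38.p14, both on the plus strand). The IRF9 match is the STAT element core TTCNNNGAA (the GAS element), at −63 to −55, and the TLR3 match is the ISRE core on the opposite strand, at −4 to 5.
IRF9 chr14:24161191-24161220: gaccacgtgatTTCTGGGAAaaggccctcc
TLR3 chr4:186069142-186069171: caagctttacTTTCACTTTCgagagtgccg
TLR3 also held 2 GAS cores, which start at −178 and −50. Of all promoters 7.88% held the GAS core. Promoter entries were matched for 5 of the 10 genes, IFIH1, TLR3, STAT2, IRF9 and MAVS. STAT2 and MAVS held none of these letters in the window from 250 bases before to 50 after the start. Of the effector genes with a promoter entry, 25 of 36 held the ISRE core. Whether these matches relate to the changes after knockdown was not tested.

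**Figure D2:**
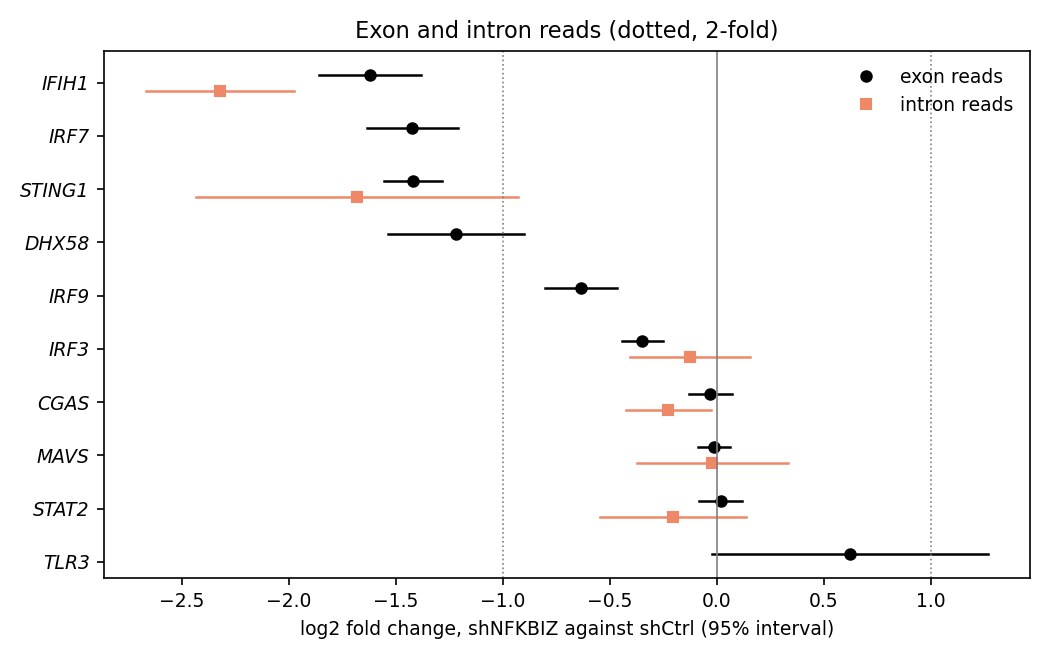
Log2 fold change (shNFKBIZ against shCtrl) with 95% intervals from edgeR, for exon reads (circles, 10 genes) and intron reads (squares, the 6 genes tested), with dotted lines at a 2-fold change. IFIH1 and STING1 lie to the left in both kinds of read, and the intron value of IFIH1 (−2.32) lies further left than its exon value (−1.62).

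Reads in introns come largely from unspliced RNA and give a second readout of the same genes. Introns took 7.16 to 7.46% of gene reads in shCtrl and 7.63 to 8.15% in shNFKBIZ, and intron reads were scaled on their own. Among the 10 genes, 6 had enough intron reads for a test, and IFIH1 and STING1 were lower, both by more than 2-fold. Of the 12119 genes tested in introns, 19.5% were lower and 3.89% lower by at least 2-fold. Intron reads of NFKBIZ, the target of the hairpin, fell too, from 252, 251 and 271 in shCtrl to 135, 122 and 125 in shNFKBIZ. Their log2 fold change was −1.11 (edgeR adjusted p = 9.83e-12), and the cause was not tested.

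Intron reads of IFIH1 were 101, 111 and 99 in shCtrl and 23, 22 and 21 in shNFKBIZ, with little spread in either group. This was a log2 fold change of −2.32 (SE 0.171, edgeR adjusted p = 7.17e-14). The intron reads of IFIH1 fell further than its exon reads, with a difference (exon minus intron) of 0.71 on the log2 scale (SE 0.224, edgeR adjusted p = 0.0105 in a model of both kinds). Of the 11025 genes in that model, 12.4% had a difference above 0 that passed. Without the second shNFKBIZ library the difference was 0.56 with an edgeR adjusted p of 0.116, so the call was lost. With 1 library left out the difference ranged from 0.56 to 0.81, so its sign held in each run.

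STING1 had few intron reads, 15, 18 and 22 in shCtrl and 8, 5 and 5 in shNFKBIZ, without overlap. The log2 fold change was −1.68 (SE 0.371, edgeR adjusted p = 0.000388), and the exon minus intron difference of 0.28 did not pass. The intron reads of CGAS, IRF3, MAVS and STAT2 did not pass the test, with log2 fold changes of −0.23, −0.12, −0.02 and −0.20 and edgeR adjusted p of 0.067, 0.509, 0.941 and 0.356. Without the third shCtrl library the intron reads of CGAS were lower (−0.34, edgeR adjusted p = 0.00972). For IRF3, whose exon reads fell, the intron reads were 79, 97 and 89 in shCtrl and 73, 105 and 81 in shNFKBIZ, which overlapped. The exon minus intron difference of IRF3, −0.22, did not pass either, so the exon and intron changes of IRF3 were not shown to differ.

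The other 4 genes had too few intron reads for the test. DHX58 had 35 in shCtrl and 14 in shNFKBIZ over the 3 libraries, a ratio of 0.391 after scaling by total intron reads (exact 95% interval 0.194 to 0.745, counting error only). IRF9 had 10 and 3 (ratio 0.293, interval 0.0519 to 1.14), TLR3 had 3 and 1, and IRF7 had 0 and 2. Bases annotated as exon make up 6471 of the 6810 bases of IRF9 and 2612 of the 3431 of IRF7. Little of these genes is left to count as intron, and their unspliced RNA falls mostly in bases counted as exon. A change in unspliced RNA of IRF7, IRF9 and TLR3 was therefore not detectable from intron reads. Reads across exon junctions, summed over the 3 libraries of each group, went from 229 to 81 for IFIH1, from 579 to 233 for STING1, from 267 to 99 for IRF7, from 301 to 193 for IRF9 and from 78 to 39 for DHX58.

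**Figure D3:**
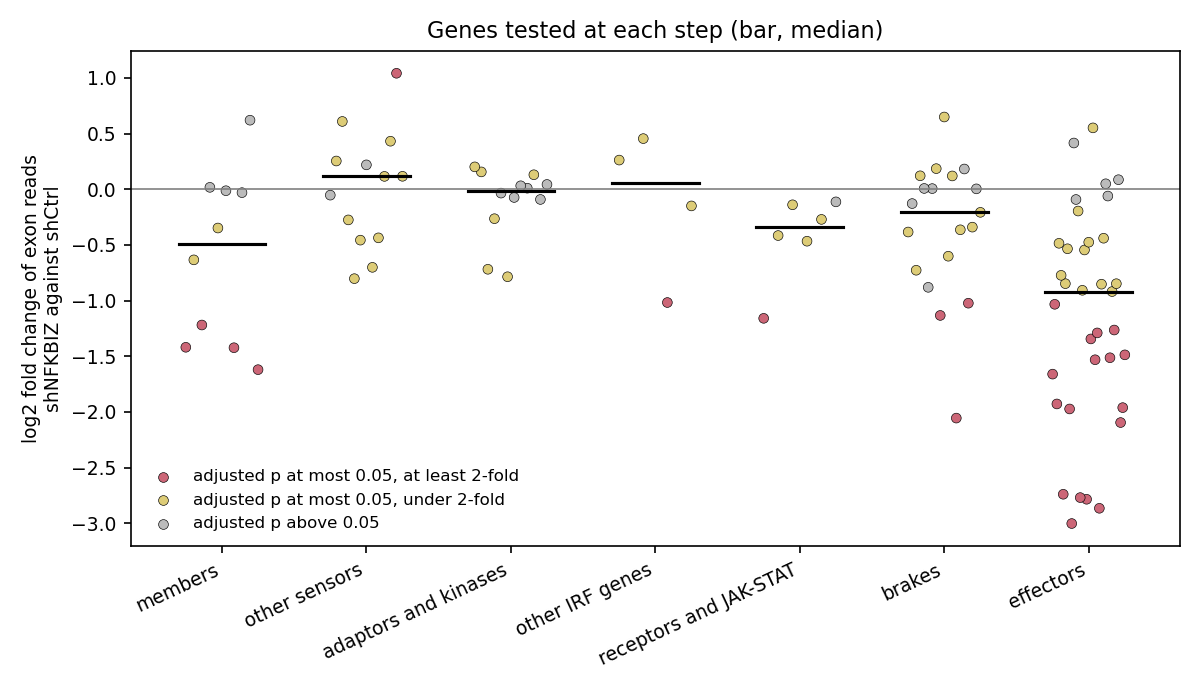
Log2 fold change of exon reads for each gene tested at each step, with 1 point per gene, a bar at the median of the list and colours for the edgeR call. Adaptors and kinases centre on −0.01, the 10 sensors and regulators on −0.49 and the effectors on −0.92.

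Most of the interferon genes were not detected, with IFNE as an exception. Of 21 interferon genes listed, 19 had no exon read in any library, IFNB1 among them, where 3 reads correspond to 0.122 to 0.135 CPM (reads scaled to a common library total). IFNE, an epithelial type I interferon, had 32, 21 and 26 exon reads in shCtrl, compared with 25, 44 and 42 in shNFKBIZ (log2 fold change 0.47, edgeR adjusted p = 0.108), and IFNK had 6, 2 and 2 against 0, 0 and 2. In TPM, IFNE stood at 2.92 ± 0.648 in shCtrl and 4.29 ± 1.22 in shNFKBIZ (SD, n = 3), above the mean of TLR3 in both groups. A lower level of interferon mRNA in shNFKBIZ was thus not detectable at this depth.

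Downstream of the interferons, the receptor and JAK-STAT genes were mostly lower. Of 7 listed, 6 were tested and 5 fell (median log2 fold change −0.34), beside 32.8% of all genes tested. The type I receptor chains fell by 0.47 for IFNAR1 and 0.27 for IFNAR2 on the log2 scale (edgeR adjusted p = 1.65e-09 and 0.000254). Of the IFNAR2 exon reads, 54.7% were counted as unique. IL10RB, a chain of the type III receptor, fell by 1.16 (adjusted p = 5.31e-13), with 859, 857 and 743 reads in shCtrl against 343, 389 and 379 in shNFKBIZ. On the few reads unique to IL10RB the log2 fold change was −0.68.

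Brakes on the pathway changed in both directions. Of 19, all tested, 9 fell and 4 rose (median log2 fold change −0.21). The shares over all genes tested were 32.8% lower and 32.5% higher. SOCS3, an inhibitor of JAK signalling, had 2185, 2382 and 2206 exon reads in shCtrl, compared with 555, 555 and 535 in shNFKBIZ, and fell by 2.06 on the log2 scale (edgeR adjusted p = 2.87e-19). SAMHD1, which limits the cellular pool of deoxynucleotides, fell by 1.13 (adjusted p = 8.47e-12). USP18, which removes ISG15 from proteins and blocks IFNAR2 signalling, fell by 1.02 (adjusted p = 3.13e-05), from 71, 86 and 73 reads to 33, 44 and 37.

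Among the interferon-stimulated effector genes, 29 of 35 tested fell, 17 of them by at least 2-fold, and 1 rose (median log2 fold change −0.92). By the same test 32.8% of all genes were lower, 5.12% lower by at least 2-fold, and 32.5% higher. Among effectors with a mean of at least 50 exon reads, ISG20, an exonuclease, was 8.01-fold lower, IFIT1, which binds viral RNA, 7.28-fold and OASL 6.82-fold. IFIT1 had 309, 286 and 287 exon reads in shCtrl against 38, 34 and 50 in shNFKBIZ. Of the effectors at that level that passed, PLSCR1 (log2 fold change −0.20), IFI35 (−0.44) and SP110 (−0.48) changed least. The 5 tested effectors that did not pass were TRIM22 (0.42), DDX60L (0.09), IFI44 (0.05), TRIM14 (−0.06) and HERC5 (−0.09), named after their values were seen. The gene that rose was IFI44L (0.55, edgeR adjusted p = 0.0319), a gene named after its value was seen. The count of effectors that rose was 0 by DESeq2 and 0 without the second or the third library of either group.

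All of these values are mRNA levels, which do not show the activity of the proteins. The order in which the genes changed cannot be told from 1 harvest.

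**Figure D4:**
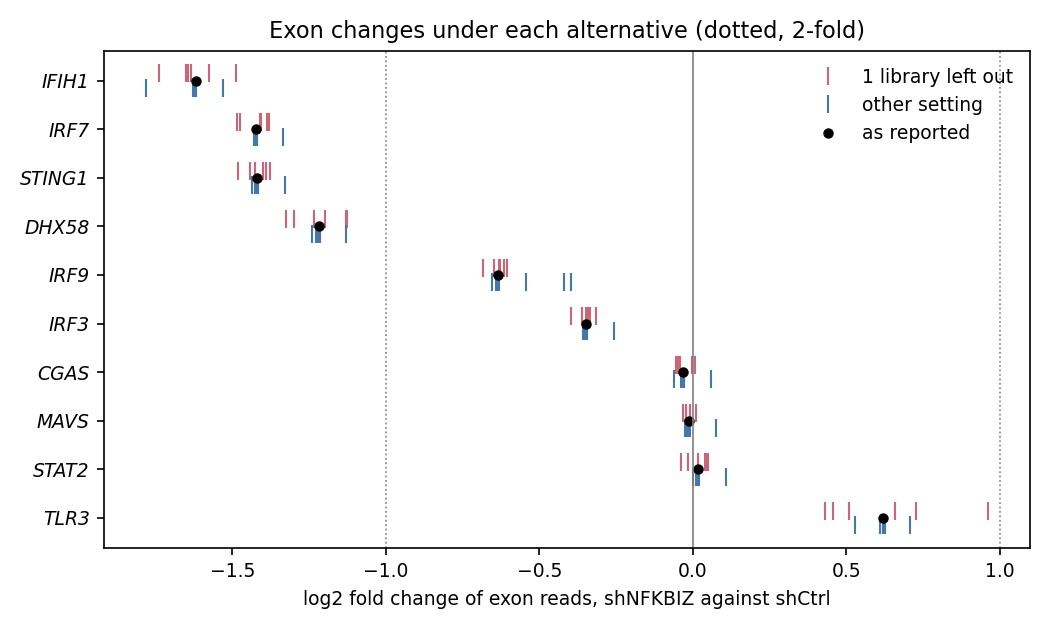
Log2 fold change of exon reads (shNFKBIZ against shCtrl) for the 10 genes as reported (circles), with 1 library left out (red ticks) and under each other setting (blue ticks). IFIH1, IRF7, STING1 and DHX58 stay beyond the dotted 2-fold line on the lower side in each, IRF9 ranges from −0.68 to −0.40, and MAVS, CGAS and STAT2 cross 0.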

How the data were processed

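Sample titles gave the groups and the replicate numbers. The authors mapped the reads to hg38 (annotation GRCh38.109) with CLC Genomics Workbench 24.0 and deposited whole-number read counts per gene, split into exon and intron reads. Reads with up to 10 hits were kept, and strand was not used. Deposited TPM were recomputed from the counts (largest deviation 0.0264%). Total exon and total intron reads were each tested with edgeR 4.0.16 (R 4.3.3) by filterByExpr, TMM and the robust quasi-likelihood test, two-sided, with Benjamini-Hochberg adjustment over all genes tested. The exon minus intron difference used 1 model with library as a block. On counts simulated with 2-fold changes, the exon fit recovered 96.5% of 200 changed genes among 13836 and called 6 unchanged ones. The exon minus intron fit recovered 89.0% of 200 among 10989. Smaller changes, or as many changed genes as in these data, were not simulated. Changes were placed only in genes above a minimum mean read number, with the same variability assumed for every gene. The recovery therefore does not cover genes with fewer reads, such as TLR3 in exons or STING1 in introns. DESeq2 1.42.0, other scalings, filters and read classes and leaving out each library were alternatives. The genes and lists were chosen with earlier results of these data known. Besides the 10 genes, the text names listed pathway genes past an adjusted p of 0.05 and 2-fold, fixed partners, the 3 lowest and 3 highest log2 fold changes among effectors that passed with a mean of at least 50 exon reads, and genes sharing exons. The labels do not say whether libraries came from separate cultures; the study describes them as 3 independent experiments. The sequencing provider differs between labels and methods and is not given. Some listed genes are not reported here.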

Additional observations from a re-analysis of the deposited data

How the results depend on the processing

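IFIH1, DHX58, STING1, IRF7, IRF9 and IRF3 kept their direction and their call under every alternative run, with log2 fold changes of −1.78 to −1.49, −1.33 to −1.13, −1.48 to −1.33, −1.49 to −1.33, −0.68 to −0.40 and −0.40 to −0.26. Summing IRF9 with its read-through gene was chosen after seeing the data. The number of the 10 genes called higher was 0 to 1 when 1 library was left out, the 1 being TLR3 without shCtrl replicate 3. Other pathway genes lower by at least 2-fold were 3 with library size alone, 3 on total gene reads and 3 to 5 with 1 library left out, against 5. Effectors called higher were 2 with library size alone, 0 with DESeq2 and 0 to 1 with 1 library left out. With at least 10 intron counts in every library, 1 of the 10 genes was lower, IFIH1, and STING1 was no longer tested. Exon minus intron differences above 0 numbered 0 to 2 with 1 library left out (0 without shNFKBIZ replicate 2, and 2 without shCtrl replicate 3, when CGAS reached 0.29 with an adjusted p of 0.0371); CGAS intron reads then also passed (−0.34, adjusted p = 0.00972). Values near 0 changed sign. With library size alone, MAVS was 0.0766 and CGAS 0.0593 in exons and MAVS 0.0368 in introns. On total gene reads, STAT2 was −0.000647 and TBK1 −0.00753. With 1 library left out, exon values ranged from −0.0309 to 0.00923 for MAVS, −0.0535 to 0.00601 for CGAS, −0.0384 to 0.0493 for STAT2 and −0.0476 to 0.0483 for TBK1, and MAVS ranged over −0.127 to 0.0559 in introns and −0.0644 to 0.105 in exon minus intron. PLSCR1 lost its call with library size alone (−0.11, adjusted p = 0.0948), a scaling that moved the median of all genes to 0.0937. Same-numbered libraries of the groups did not deviate together (correlations 0.0207, 0.0561 and 0.0288), so the numbers do not pair them. With the replicate number as a block, 6 of the 10 genes were lower and 0 higher in exons, and 2 were lower in introns. The looser ISRE core GAAANNGAA was held by 2 of 5 promoters of the set, as was the strict core, and by 8.29% of all. Depth limits the intron values of DHX58 and TLR3, the exon value of TLR3 and the interferon genes. The intron values of IRF7 and IRF9 are limited by depth and by how few of their bases are annotated as intron. Group sizes of 3 left outlying libraries untested.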

Other observations

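Among the genes that accompany IRF3, IRF7 and IRF9, the exon and intron reads of IRF2 and IRF1 changed by different amounts. Intron reads of IRF2 were 44, 69 and 55 in shCtrl against 65, 64 and 52 in shNFKBIZ (log2 fold change 0.02, edgeR adjusted p = 0.945), whereas its exon reads fell by 1.02 on the log2 scale. The exon minus intron difference of IRF2 was −1.04 on the log2 scale (SE 0.178, edgeR adjusted p = 1.42e-06). For IRF1 that difference was 1.59 (SE 0.421, edgeR adjusted p = 0.00285), and it rests on few intron reads, 16, 20 and 9 in shCtrl against 7, 14 and 1 in shNFKBIZ. The IRF1 gene as counted spans 68280 bases, strand was not used and genes overlapping it were not examined. Its intron reads may therefore not all come from IRF1. These values were singled out after they were seen, and the cause of the differences was not tested.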
